A study of Homo sapiens with 9 samples.

Results

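The ERK feedback inhibitors described here are 10 genes, DUSP1, DUSP4, DUSP5, DUSP6, DUSP8, SPRY2, SPRY4, SPRED1, SPRED2 and PHLDA1, taken by name from a table of 58735 genes. Messenger RNA was sequenced in 9 libraries of human hepatoma cells, 3 from each of 3 groups. Huh-7 cells, an established hepatoma line with wild-type genotype in the labels, served as the control. Ako-3 is a clone of Huh-7 cells in which APOB, the gene of the structural protein of very low density lipoproteins, was knocked out with CRISPR/Cas9. Mko-3 is a Huh-7 clone with a knockout of MTTP, whose product transfers lipid onto apoB. All cells were grown to near confluence in medium with fetal bovine serum, washed, and kept overnight without serum before RNA was isolated. Each knockout is 1 clone, and a difference between clones of Huh-7 cells and an effect of the knocked-out gene cannot be told apart. The libraries are labelled biological replicates, but not whether they came from separate cultures, so the p-values measure only the spread between these samples.

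ERK is the last kinase of the cascade that carries growth factor signals from RAS through RAF and MEK to the nucleus. It raises the transcripts of its own inhibitors, which then limit the signal. The dual-specificity phosphatases (DUSP) remove phosphate from ERK, p38 or JNK, the Sprouty (SPRY) and SPRED proteins act between the receptors and RAF, and PHLDA1 is a protein of the pleckstrin homology-like family whose transcript follows MEK and ERK activity in many cells. In liver cells the pathway is driven by EGF, HGF and FGF receptors.

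Of the 10 genes, 8 had a promoter window in the RefSeq table (GRCh38.p14), reaching from 250 bases before to 50 bases after an annotated start, and DUSP4 and DUSP5 had none. The windows of DUSP1 and DUSP8 are shown because both genes fell in Ako-3 cells and both windows hold the binding sequence of cAMP response element (CRE) factors, and that of DUSP6 because this gene had the highest FPKM of the 5 phosphatases among the members and its window has no such match. Capitals mark the CRE core TGACGT on either strand, and the full palindrome TGACGTCA where it was complete. All 3 are on the minus strand, at chr5:172771146-172771445 (DUSP1), chr11:1572222-1572521 (DUSP8) and chr12:89352452-89352751 (DUSP6), and are written 5′ to 3′ in the direction of the gene.
DUSP1: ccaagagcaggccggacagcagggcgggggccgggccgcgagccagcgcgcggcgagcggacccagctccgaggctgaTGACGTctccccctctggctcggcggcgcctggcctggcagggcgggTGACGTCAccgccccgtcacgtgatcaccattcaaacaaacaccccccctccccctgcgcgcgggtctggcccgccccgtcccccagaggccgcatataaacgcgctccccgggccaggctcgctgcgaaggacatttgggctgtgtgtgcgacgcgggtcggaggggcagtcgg
DUSP8: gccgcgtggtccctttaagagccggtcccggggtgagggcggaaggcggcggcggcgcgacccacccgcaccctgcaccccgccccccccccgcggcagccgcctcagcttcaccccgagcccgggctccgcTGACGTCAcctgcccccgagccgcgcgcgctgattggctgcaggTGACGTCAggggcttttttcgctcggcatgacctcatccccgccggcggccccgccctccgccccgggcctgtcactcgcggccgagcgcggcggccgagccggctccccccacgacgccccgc
DUSP6: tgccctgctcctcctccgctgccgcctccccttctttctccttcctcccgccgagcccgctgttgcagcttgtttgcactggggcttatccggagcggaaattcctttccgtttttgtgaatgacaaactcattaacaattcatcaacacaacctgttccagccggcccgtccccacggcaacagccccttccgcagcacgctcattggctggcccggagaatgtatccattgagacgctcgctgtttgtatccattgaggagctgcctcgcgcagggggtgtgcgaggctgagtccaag
DUSP1 carried the core at position -172 and the full palindrome at position -125, counted from 0 at the start, with a TATAAA match at position -30. DUSP8 carried the full palindrome at -118 and again at -74. Over 35116 RefSeq promoter windows of the same length, searched on both strands with overlapping matches counted once, 7.98% held the core, 1.85% the full palindrome and 0.0598% the palindrome at 2 or more places. The only other matched member with the core was SPRED2, in 1 of its windows, at position 29. In Ako-3 cells the log2 fold changes of the genes with the core were -1.25 (DUSP8), -1.09 (DUSP1) and -0.24 (SPRED2). Of those without it, SPRY4 was at -0.995, PHLDA1 at -0.92, SPRED1 at -0.67, SPRY2 at -0.56 and DUSP6 at -0.34. Whether the motif goes with the fold change was not tested. The motif was picked after the expression values were known, and a match is a description of the letters, not of a bound factor.

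The libraries held 14638727 to 20179760 counts. The targeted genes went with the labels. APOB was at 83.6 to 94.6 FPKM (the deposited level, scaled by gene length and library size) in Ako-3 cells and 179 to 258 in Huh-7 cells, and MTTP was at 15.3 to 16.6 FPKM in Mko-3 cells and 111 to 121 in Huh-7 cells. All 15 hepatocyte markers were detected in every group, with a summed level of 5549 to 5739 FPKM in Huh-7, 6741 to 7075 in Ako-3 and 5317 to 5571 in Mko-3 cells, and 2 of them (APOA2 and APOH) rose in Ako-3 and 1 (FGG) fell in Mko-3 cells. Of the other cell types, the 10 fibroblast and stellate markers summed to at most 2.44 FPKM in any library. The endothelial markers KDR, TEK, EMCN and ERG were at 0 throughout. The list's sum, nearly all PECAM1, was 9.98 to 11.3, 13.6 to 14.8 and 7.38 to 7.998 FPKM in Huh-7, Ako-3 and Mko-3 cells. The leukocyte markers CD68 and CD163 were at 0 throughout, and that list's sum, mostly LYZ, was 151 to 164, 187 to 204 and 188 to 202 FPKM. Mitochondrial genes took 5.52 to 6.17% of the counts in Huh-7, 7.06 to 7.40% in Ako-3 and 5.75 to 5.82% in Mko-3 libraries. The part of these differences in the results below was not tested, and in RNA from whole cultures fewer expressing cells and less RNA per cell cannot be told apart.

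All 10 feedback inhibitors were measured in every library, with 134 to 2244 counts per gene and library. In Huh-7 cells their mean levels spanned 3.65 to 20.9 FPKM. SPRED2 was highest at 20.9 ± 0.576 FPKM (SD, n = 3). SPRY2 and DUSP6 followed at 18.4 ± 1.19 and 17.9 ± 0.574 FPKM, with overlapping libraries. DUSP1, PHLDA1 and DUSP8 came next at 14.0 ± 0.833, 13.7 ± 1.38 and 13.0 ± 1.70 FPKM, and neighbours among these 3 also overlapped. DUSP5 stood below them at 9.71 ± 0.0606 FPKM, and DUSP4, SPRED1 and SPRY4 formed the low end at 5.30 ± 0.377, 4.29 ± 0.309 and 3.65 ± 0.141 FPKM, each apart from the next. SPRED2 kept the top mean level and SPRY4 the bottom in both knockout clones. In Ako-3 cells DUSP5 dropped to the eighth place, next to SPRED1, with which its libraries overlapped, and in Mko-3 cells DUSP6 overlapped SPRED2 at the top.

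Whether loss of APOB goes with a change of the ERK feedback set was asked by comparing Ako-3 with Huh-7 cells. Each of the 10 genes was at a lower FPKM in all 3 Ako-3 libraries than in all 3 Huh-7 libraries. DUSP5, DUSP8 and DUSP1 fell, that is, passed both an absolute log2 fold change of 1 and a Benjamini-Hochberg adjusted p of 0.05 in edgeR's quasi-likelihood test. Among the 15787 genes tested, 5.00% fell by this rule and 3.52% rose. The adjusted p alone placed 10 of 10 members lower, against 24.4% of all genes, and the separation of the libraries was found for 28.1% of all genes in this direction. The median log2 fold change of the 10 was -0.79, beside -0.0087 over all genes. The members were chosen with earlier results of these data known. DUSP1, DUSP5 and DUSP8 were also in a MAPK list that the study drew from these libraries. The members' counts and medians, here and in the comparisons below, are therefore not independent evidence. With library totals in place of TMM scaling, 437 genes rose and 984 fell where 556 rose and 789 fell with TMM, and 5 members passed both thresholds.

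**Figure D1:**
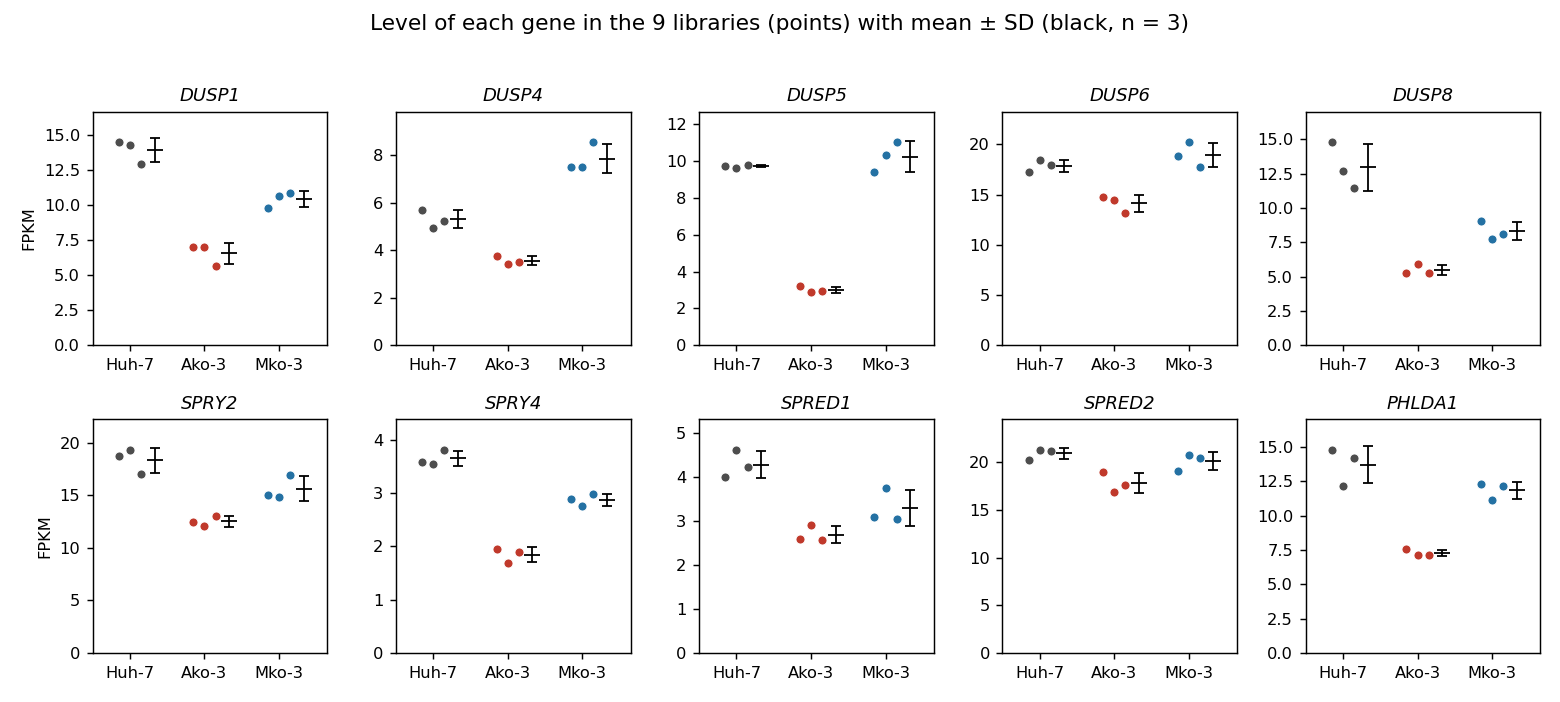
FPKM (vertical axes, from 0) of each of the 10 genes in the 9 libraries, shown as points by group, with the mean and SD of the 3 libraries in black. Every Ako-3 point lies below every Huh-7 and every Mko-3 point of the same gene, while DUSP4 is highest in Mko-3 cells, at 7.50 to 8.56 FPKM.

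The nuclear phosphatases that growth factors and stress induce, DUSP1, DUSP4 and DUSP5, were together at 29.0 ± 0.970 FPKM in Huh-7, 13.2 ± 0.956 in Ako-3 and 28.6 ± 1.88 in Mko-3 cells (SD, n = 3). DUSP5, a phosphatase selective for ERK (chromosome 10, 110497838 to 110511544, plus strand, hg38), was at 9.73, 9.64 and 9.76 FPKM in the Huh-7 libraries, 3.21, 2.90 and 2.94 in the Ako-3 libraries and 9.38, 10.3 and 11.0 in the Mko-3 libraries. The Ako-3 libraries stood alone at the low level, with 134 to 151 counts each, and the Huh-7 and Mko-3 libraries overlapped. The log2 fold change was -1.69 (SE 0.109, adjusted p = 1.21e-10, edgeR) in Ako-3 cells, a 3.23-fold lower level. In Mko-3 cells it was 0.06 with a 95% interval of -0.13 to 0.25 (adjusted p = 0.583), and its sign turned with upper-quartile scaling (-0.0050) and with library totals (-0.0055).

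DUSP1, which dephosphorylates p38, JNK and ERK (chromosome 5, 172768090 to 172771195, minus strand), was at 14.5, 14.3 and 13.0 FPKM in Huh-7, 6.99, 7.03 and 5.68 in Ako-3 and 9.81, 10.7 and 10.9 in Mko-3 libraries. The 3 groups did not overlap, and Mko-3 cells lay between the others. The log2 fold change against Huh-7 cells was -1.09 in Ako-3 (SE 0.106, adjusted p = 5.18e-08) and -0.43 in Mko-3 cells (SE 0.0930, adjusted p = 5.15e-04). Without Ako-3 replicate 3, the lowest library, the value in Ako-3 cells was -0.99 and no longer past the fold threshold.

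DUSP4, the close relative of DUSP1 on chromosome 8, was the only member that passed the adjusted p in opposite directions in the knockouts. It was at 5.70, 4.95 and 5.26 FPKM in Huh-7, 3.78, 3.43 and 3.49 in Ako-3 and 7.50, 7.53 and 8.56 in Mko-3 libraries. All Ako-3 libraries were below and all Mko-3 libraries above the controls. The log2 fold changes were -0.58 (SE 0.0865, adjusted p = 1.29e-05) in Ako-3 and 0.55 (SE 0.0814, adjusted p = 7.03e-06) in Mko-3 cells, neither past the fold threshold.

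DUSP6, the cytoplasmic phosphatase of ERK (chromosome 12, 89347232 to 89353271, minus strand), showed the smallest difference of the 5 phosphatases in Ako-3 cells. Its level was 17.3, 18.4 and 17.9 FPKM in Huh-7, 14.8, 14.5 and 13.2 in Ako-3 and 18.9, 20.2 and 17.8 in Mko-3 libraries. The Ako-3 libraries were below the others, and the Huh-7 and Mko-3 libraries overlapped. The log2 fold change was -0.34 (SE 0.0707, adjusted p = 4.36e-04) in Ako-3 cells and 0.07 in Mko-3 cells, with a 95% interval of -0.07 to 0.22 (adjusted p = 0.383).

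DUSP8, which prefers JNK and p38 (chromosome 11, 1554044 to 1571920, minus strand), was at 14.8, 12.7 and 11.4 FPKM in Huh-7, 5.27, 5.90 and 5.26 in Ako-3 and 9.03, 7.78 and 8.14 in Mko-3 libraries. The 3 groups did not overlap, and the Mko-3 libraries were again intermediate. The log2 fold change was -1.25 (SE 0.0936, adjusted p = 1.49e-09) in Ako-3 and -0.65 (SE 0.0912, adjusted p = 4.09e-06) in Mko-3 cells. The gene overlaps the antisense gene KRTAP5-AS1, which had 5 to 23 counts per library. Of the 10 members, 6 overlap another gene model, and none of these models had more than 23 counts in a library.

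The makeup of the 5 DUSP members differed as well. Their sum is not the whole phosphatase pool, since other dual-specificity phosphatases are left out. Of these, DUSP9 had a mean of 195 FPKM in Huh-7, 230 in Ako-3 and 218 in Mko-3 cells. The 5 DUSP members summed to 57.4 to 62.0 FPKM in Huh-7, 30.5 to 34.0 in Ako-3 and 54.6 to 56.5 in Mko-3 libraries. DUSP6 made up 29.9 ± 1.82% of this sum in Huh-7, 43.2 ± 0.299% in Ako-3 and 34.0 ± 2.20% in Mko-3 cells. DUSP5 made up 16.3 ± 0.686%, 9.21 ± 0.543% and 18.3 ± 1.19% (SD, n = 3). DUSP4 took 8.87 ± 0.535% in Huh-7 and 14.1 ± 0.980% in Mko-3 cells, where DUSP8 and DUSP1 took smaller shares than in Huh-7 cells, 14.9 ± 1.45% after 21.7 ± 2.01% and 18.7 ± 0.671% after 23.3 ± 0.622%. The Mko-3 sums thus lay just below the Huh-7 sums, without overlap, and were made up in other proportions.

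**Figure D2:**
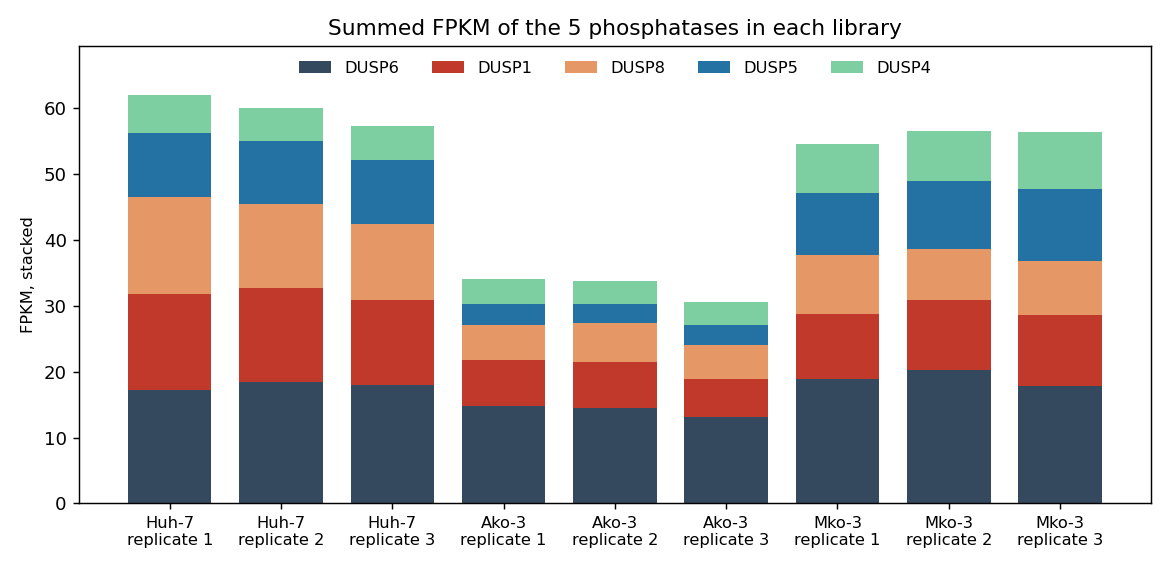
FPKM of the 5 DUSP members stacked for each of the 9 libraries (vertical axis, from 0). Other phosphatases, such as DUSP9, are left out. The Ako-3 stacks reach 30.5 to 34.0 FPKM, with DUSP6 the largest segment, and the Mko-3 stacks reach 54.6 to 56.5 with more DUSP4 and less DUSP8 than the Huh-7 stacks.

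The Sprouty and SPRED genes were lower in Ako-3 cells by smaller steps, and none of the 4 passed both thresholds. Summed over them, the level was 46.3 to 48.8 FPKM in Huh-7, 33.5 to 35.9 in Ako-3 and 40.1 to 43.5 in Mko-3 libraries. SPRY2, which holds back receptor signals to RAS (chromosome 13, 80335976 to 80340951, minus strand), was at 18.7, 19.3 and 17.0 FPKM in Huh-7, 12.4, 12.1 and 13.1 in Ako-3 and 15.1, 14.9 and 17.0 in Mko-3 libraries. The Ako-3 libraries were apart from both other groups, while the highest Mko-3 library, at 16.99 FPKM, came just under the lowest Huh-7 library at 17.04. The log2 fold change was -0.56 (adjusted p = 5.89e-06) in Ako-3 and -0.24 (adjusted p = 0.0125) in Mko-3 cells.

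SPRY4, a second Sprouty protein (chromosome 5, 142310427 to 142326455, minus strand), showed the largest difference of this class, with 3.59, 3.55 and 3.81 FPKM in Huh-7, 1.95, 1.68 and 1.89 in Ako-3 and 2.89, 2.75 and 2.98 in Mko-3 libraries. The 3 groups did not overlap. Its log2 fold change in Ako-3 cells, -0.995 (SE 0.106, adjusted p = 1.70e-07), stopped just short of the fold threshold. It passed with upper-quartile scaling (-1.05), with library totals (-1.09), and in 4 of the 6 fits that left out a library, at -1.01 without Huh-7 replicate 1, Huh-7 replicate 2 or Ako-3 replicate 3 and at -1.03 without Ako-3 replicate 1. In Mko-3 cells it was -0.36 (SE 0.0945, adjusted p = 0.00287).

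SPRED1 and SPRED2 recruit neurofibromin, which switches RAS off. SPRED1 (chromosome 15, 38252326 to 38357249, plus strand) was at 4.01, 4.62 and 4.23 FPKM in Huh-7, 2.60, 2.92 and 2.56 in Ako-3 and 3.08, 3.77 and 3.05 in Mko-3 libraries. No libraries of the 3 groups overlapped, and the log2 fold change was -0.67 (adjusted p = 3.77e-06) in Ako-3 and -0.39 (adjusted p = 0.00185) in Mko-3 cells. SPRED2 (chromosome 2, 65310851 to 65432637, minus strand) was at 20.3, 21.3 and 21.2 FPKM in Huh-7, 18.9, 16.8 and 17.6 in Ako-3 and 19.1, 20.8 and 20.5 in Mko-3 libraries. It differed least of the 10 genes in Ako-3 cells, at -0.24 on the log2 scale (SE 0.0672, adjusted p = 0.00579), and its adjusted p was 0.0638 without Ako-3 replicate 2. In Mko-3 cells the Huh-7 and knockout libraries overlapped, and the value was -0.07 with a 95% interval of -0.20 to 0.07 (adjusted p = 0.387).

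PHLDA1 (chromosome 12, 76025447 to 76033932, minus strand) was at 14.8, 12.2 and 14.2 FPKM in Huh-7, 7.57, 7.17 and 7.17 in Ako-3 and 12.3, 11.2 and 12.1 in Mko-3 libraries. The Ako-3 libraries were the lowest and close together, and the Huh-7 and Mko-3 libraries overlapped. The log2 fold change was -0.92 (SE 0.0770, adjusted p = 6.75e-09) in Ako-3 cells, short of the fold threshold except with library totals (-1.01). In Mko-3 cells it was -0.23 (SE 0.0747, adjusted p = 0.0145).

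In Mko-3 cells, then, none of the 10 feedback inhibitors passed both thresholds against Huh-7 cells in edgeR, and none did in DESeq2. Of the 15745 genes tested here, 7.22% fell and 3.82% rose by that rule. At an unadjusted p under 0.05, for which the share of all genes is not given here, there were 7 members. The adjusted p alone held 6 lower (27.1% of all genes) and DUSP4 higher (26.9%). The libraries did not overlap for 5 lower members, DUSP1, DUSP8, SPRY2, SPRY4 and SPRED1, and for DUSP4, where 29.8% of all genes separated downwards and 30.9% upwards. The median log2 fold change of the 10 was -0.23, beside -0.0108 over all genes. Leaving out 1 library at a time left 5 to 7 members past the adjusted p, and those lost were PHLDA1 (without Huh-7 replicate 1, Huh-7 replicate 3 or Mko-3 replicate 2) and SPRY2 (without Mko-3 replicate 1 or Mko-3 replicate 2), at an adjusted p of up to 0.112 and 0.0854.

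**Figure D3:**
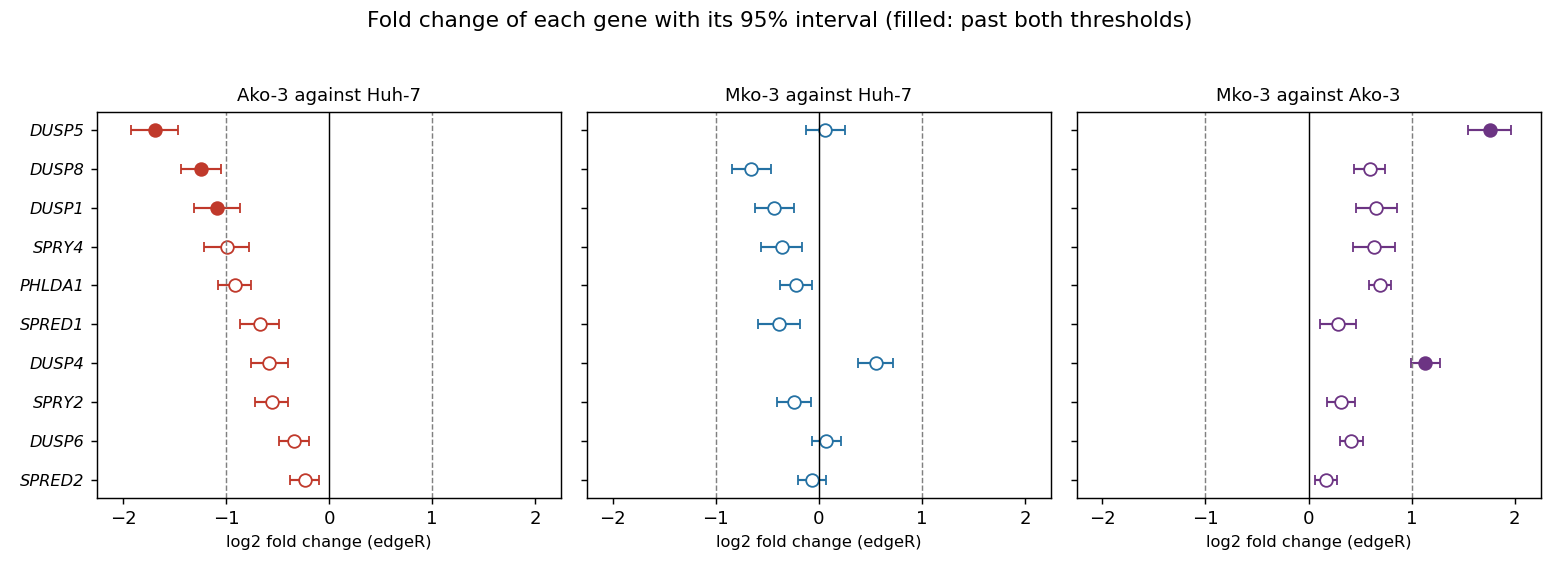
Log2 fold change of the 10 genes (horizontal axes) with 95% intervals in the 3 comparisons, in the order of the Ako-3 values, with filled circles past both thresholds and dashed lines at a log2 value of 1 in either direction. In the left panel all intervals lie below 0. In the middle panel DUSP4 lies above 0 and DUSP5, DUSP6 and SPRED2 cross it, DUSP5 changing sign with 2 other scalings, and in the right panel all lie above 0.

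Both knockouts were compared with the same 3 Huh-7 libraries, so the difference between the clones was tested directly, Mko-3 against Ako-3 cells. Of the 10 members, 2 rose in Mko-3 relative to Ako-3 cells, DUSP5 with a log2 difference of 1.76 (95% interval 1.55 to 1.96, adjusted p = 7.47e-25) and DUSP4 with 1.13 (0.99 to 1.27, adjusted p = 1.55e-23), beside 2.26% of 15528 genes tested that rose and 3.47% that fell. By the adjusted p alone all 10 were higher in Mko-3 cells (21.1% of all genes), and for all 10 every Mko-3 library was above every Ako-3 library (25.6%). The differences of the other 8 ran from 0.17 for SPRED2 to 0.69 for PHLDA1. The median was 0.61, beside 0.0048 over all genes. The adjusted p was lost for SPRED2 without Ako-3 replicate 2 (0.0691) and for SPRED1 without Mko-3 replicate 2 (0.143).

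The rest of the pathway was described with 5 lists. Of 15 other dual-specificity phosphatases, 13 were tested and 0 passed both thresholds in Ako-3 cells in edgeR or DESeq2, where 5.00% of all genes fell and 3.52% rose. A count of 0 among so few genes is near this background and was not tested against the members. At an unadjusted p under 0.05 there were 3, and the median log2 fold change was -0.08. The adjusted p alone placed 1 lower, where 24.4% of all genes were, and 2 higher. In Mko-3 cells the count past both thresholds was also 0 of 13, beside 7.22% and 3.82% of all genes, with 4 at an unadjusted p under 0.05. Shares of all genes at an unadjusted p, and of those higher by the adjusted p in Ako-3 cells, are not given here. This list holds DUSP9, a cytoplasmic ERK phosphatase and the most abundant of the family here. It was at 195 ± 22.8 FPKM in Huh-7, 230 ± 5.44 in Ako-3 and 218 ± 8.01 in Mko-3 cells (SD, n = 3), a level above the 5 DUSP members together. Unlike the members, DUSP9 was higher in Ako-3 cells, with a log2 fold change of 0.24 (adjusted p = 0.00863, edgeR). In Mko-3 cells its value was 0.15 (adjusted p = 0.0839). The list also holds DUSP16, a phosphatase of JNK and p38, at 31.1 ± 1.70, 21.4 ± 0.676 and 20.2 ± 0.416 FPKM. Its log2 fold change was -0.55 (adjusted p = 7.63e-07) in Ako-3 and -0.63 (adjusted p = 3.62e-08) in Mko-3 cells. In Ako-3 cells this was close to the values of the members DUSP4 (-0.58) and SPRY2 (-0.56). DUSP9 and DUSP16 were singled out after their values were seen.

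Among 26 other negative regulators of the pathway, 23 were tested in Ako-3 cells and 1 fell, a share near the 5.00% of all genes that fell. This was ERRFI1, an inhibitor of the EGF receptor that growth factors induce, at 163 ± 4.10 FPKM in Huh-7 and 81.3 ± 6.16 in Ako-3 cells (log2 fold change -1.01, SE 0.0633, adjusted p = 9.04e-11), a call that was lost without Huh-7 replicate 2 or Ako-3 replicate 3, when 0 genes of the list passed. Its level in Mko-3 cells was 129 ± 2.70 FPKM, with a log2 fold change of -0.35. The list's median was -0.09 in Ako-3 cells, and the adjusted p alone placed 7 lower, beside 24.4% of all genes, and 3 higher. The share of all genes higher by that rule is not given here. In Mko-3 cells 1 of 24 fell, where 7.22% of all genes did. This was SOCS3, a cytokine-induced inhibitor of receptor signalling, at -1.19 on the log2 scale (SE 0.107, adjusted p = 1.86e-08), named after its value was seen. SOCS3 was also lower in Ako-3 cells, at -0.83 (adjusted p = 8.2e-07), short of the fold threshold. Another Sprouty gene, SPRY1, which passed both thresholds in neither clone and was chosen after its values were seen, was at 6.77 ± 0.461, 5.63 ± 0.404 and 4.94 ± 0.910 FPKM in Huh-7, Ako-3 and Mko-3 cells.

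The core cascade from adaptors and RAS to ERK and its kinases was counted from 27 genes. In Ako-3 cells 0 of 26 tested passed both thresholds in edgeR or DESeq2, where 5.00% of all genes fell and 3.52% rose in edgeR. At an unadjusted p under 0.05 there were 15, with no share of all genes to set beside them. The adjusted p alone placed 7 lower, near the 24.4% of all genes, and 5 higher, with a list median of -0.04. The share of all genes higher by that rule is not given here. In Mko-3 cells 0 of 25 passed in edgeR and 1 in DESeq2, where 7.22% of all genes fell and 3.82% rose in edgeR. There were 17 at an unadjusted p under 0.05, again with no share of all genes beside them. By the adjusted p alone 7 were lower and 9 higher, beside 27.1% and 26.9% of all genes. Past both thresholds, 1 gene also passed without Huh-7 replicate 1 or without any 1 of the Mko-3 replicates. Among the 25 genes tested with all 6 libraries, the largest log2 fold change was 0.78, for HRAS. The 2 that the filter left out, RPS6KA2 and RPS6KA5, are named for their low counts, at most 17 in any Huh-7 or Mko-3 library. Of 18 JNK and p38 pathway kinases 1 rose in Ako-3 cells, near the 3.52% of all genes that rose. This was MAP3K5, a stress-activated kinase at 0.190 ± 0.0192 FPKM in Huh-7 and 0.940 ± 0.118 in Ako-3 cells (log2 fold change 2.29, adjusted p = 1.43e-07). It fell in Mko-3 cells (-1.77, adjusted p = 0.00205), where 7.22% of all genes fell. MAP3K5 had only 14 to 21 counts per library in Huh-7 and 4 to 6 in Mko-3 cells.

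Other transcripts, listed here as ERK-induced, were mostly lower in Ako-3 cells. ERK activity itself was not measured, and whether these genes follow ERK in Huh-7 cells was not tested. Of 50 genes, 43 were tested in Ako-3 cells, of which 12 fell and 0 rose, beside 5.00% and 3.52% of all genes. By the adjusted p alone 30 were lower, where 24.4% of all genes were, and 2 were higher, a direction for which no such share is given here. Of the 12, EREG and PHLDA2, named for their low counts, had at most 16 counts in any Huh-7 or Ako-3 library. The median was -0.60. The 3 with the smallest adjusted p were ATF3, a stress-induced transcription factor (-1.92, SE 0.0945, adjusted p = 2.60e-12), JUN, a subunit of AP-1 (-1.27, SE 0.0635, adjusted p = 2.97e-12) and the chemokine CXCL8 (-1.29, SE 0.0705, adjusted p = 1.21e-11). CXCL8 was at 52.0 ± 3.48 FPKM in Huh-7, 21.4 ± 0.324 in Ako-3 and 53.2 ± 0.640 in Mko-3 cells, and JUN at 108 ± 6.38, 44.7 ± 1.80 and 62.2 ± 1.34 FPKM. The lists include genes that the study had placed in a MAPK list chosen on these libraries, JUN, EPHA2, MYC, NR4A1, AREG and EREG here and DUSP1, DUSP5 and DUSP8 among the members, so their direction is not independent evidence.

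In Mko-3 cells the same list had 4 genes that fell and 1 that rose among 43 tested, near the 7.22% and 3.82% of all genes, with a median of -0.24. Those that fell were ATF3 (-1.24), KLF4 (-2.43), FOSB (-1.23) and EREG (-1.56), and KLF2 rose (1.36), all named after their values were seen. FOSB, EREG and KLF2 had at most 58 counts in any library of Huh-7 or Mko-3 cells. In Mko-3 relative to Ako-3 cells 4 of 42 rose and 1 fell, beside 2.26% and 3.47% of all genes. EPHA2 (1.01), CXCL8 (1.31), AREG (2.28) and PHLDA2 (2.43) rose and KLF4 (-1.02) fell, also named after their values were seen. PHLDA2 had only 2 to 7 counts in the Ako-3 libraries. Against Ako-3 cells, 25 genes of this list were higher by the adjusted p alone, where 21.1% of all genes were. Another 3 were lower, a direction for which no such share is given here.

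**Figure D4:**
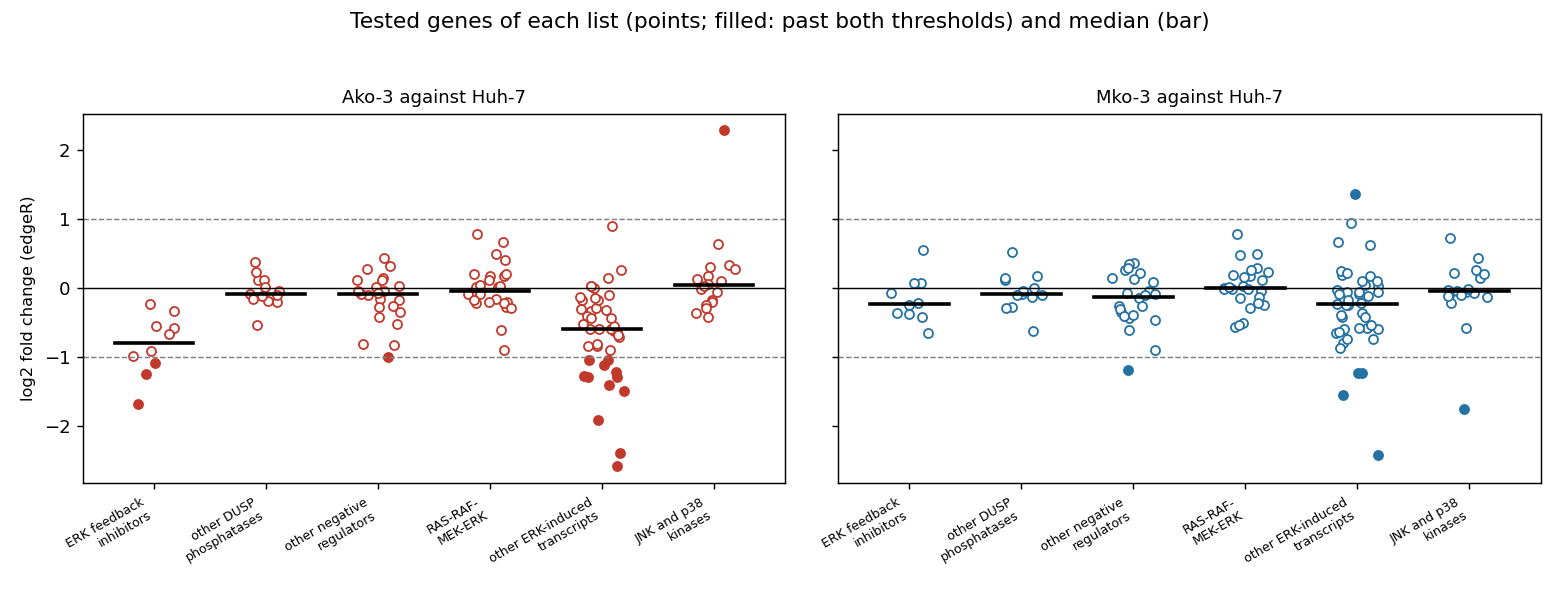
Log2 fold change (vertical axis) of each tested gene of the 10 feedback inhibitors and of 5 other lists against Huh-7 cells, with filled points past both thresholds, bars at the list medians and dashed lines at a log2 value of 1 in either direction. In Ako-3 cells the medians of the feedback inhibitors (-0.79) and of the other ERK-induced transcripts (-0.60) lie below those of the 4 other lists, and in Mko-3 cells they are -0.23 and -0.24.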

How the data were processed

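RNA was sequenced from 3 Huh-7, 3 Ako-3 and 3 Mko-3 libraries. To make the deposited raw counts, the authors aligned reads to hg38 with HISAT2 2.0.5 and counted them on genes with featureCounts 1.5.0-p3, per the submitters' processing notes, which also list GRCh37 and hg19 with no role. The annotation release is not given in the sources used here. The deposited FPKM values were made by the authors from these counts and gene length. From the values, the library size in them was found to be a constant multiple of DESeq2's size factors for the 9 libraries. The library protocol names no strand marking, so a gene and an antisense partner cannot be separated.

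Groups were taken from the cell line in the labels. Counts were tested with edgeR 4.0.16 in R 4.3.3 (TMM, a filterByExpr minimum of 10 counts, quasi-likelihood F test with robust dispersion), fitting each of the 3 comparisons on its own 6 libraries with Benjamini-Hochberg adjustment over all genes tested. A gene was said to have risen or fallen when its log2 fold change reached 1 in size and its adjusted p was 0.05 or less. The standard error is the size of the fold change over the square root of F. An exact permutation test of 3 against 3 libraries cannot give a two-sided p below 0.1 and was not used. DESeq2 1.42.0, other scalings, no filter, 1 fit of all libraries, a replicate block and leaving out each library were alternatives. The script was run on simulated counts with known fold changes before use, which checks its coding and not the p-values of these libraries. Total counts of 14638727 to 20179760 leave genes near the minimum count with wide errors.

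The 10 members and the lists were chosen with earlier results of these data known. All members were named, and from each other list at most 3 genes past both thresholds with the smallest adjusted p in Ako-3 cells or, where none passed, in Mko-3 cells, with exceptions marked. CCN1 and CCN2 were matched through older symbols (2 names). Levels between genes were compared only as FPKM. Promoter windows of 300 bases came from RefSeq.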

Additional observations from a re-analysis of the deposited data

Results flagged for a closer look

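For 2 of the 10 genes the Mko-3 and Ako-3 clones differed from each other past both thresholds. For DUSP4 the log2 difference of Mko-3 minus Ako-3 cells was 1.13, from -0.58 in Ako-3 and 0.55 in Mko-3 cells against the shared controls, and it was higher in 3 of 3 Mko-3 libraries. For DUSP5 it was 1.76, from -1.69 and 0.06 (the latter -0.0050 with upper-quartile scaling and -0.0055 with library totals), with 3 of 3 Mko-3 libraries above all Ako-3 libraries. Both were tested directly with edgeR (adjusted p = 1.55e-23 and 7.47e-25). Over the alternatives the difference ran from 1.07 to 1.18 for DUSP4 and from 1.70 to 1.82 for DUSP5. Groups of 3 libraries were not searched for single deviating libraries.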

How the results depend on the processing

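The 10 members kept their direction in all alternatives run for Ako-3 against Huh-7 and Mko-3 against Ako-3 cells, and in Mko-3 against Huh-7 cells all but DUSP5 did, which turned to -0.0050 with upper-quartile scaling (adjusted p = 0.969) and -0.0055 with library totals (adjusted p = 0.965). The cause was not tested. Against the 3 members called in Ako-3 cells, 5 were called with library totals, 4 with upper-quartile scaling and 3 to 4 when 1 library was left out. The adjusted p alone called 10 members in Ako-3, 7 in Mko-3 and 10 in Mko-3 against Ako-3 cells, where both thresholds called 3, 0 and 2. It called 65, 67 and 64 genes of the 5 pathway lists where both called 14, 7 and 6, since it drops the fold threshold. In Mko-3 cells 27.1% of all genes were lower and 26.9% higher by the adjusted p alone. The list totals are therefore not read as a result about the lists. The members' median moved from -0.79 to -0.84 with upper-quartile scaling and -0.89 with library totals in Ako-3 cells, and from -0.23 to -0.30 with either in Mko-3 cells. In Mko-3 against Ako-3 cells it ranged from 0.56 to 0.64 when 1 library was left out. DESeq2, RLE scaling, no filter on low counts and 1 fit of all 9 libraries called the same number of members, 3, 0 and 2. The replicate block also called 3, 0 and 2. Same-numbered libraries did not deviate together (correlations of -0.215 to 0.178), so the numbers were not taken as pairs. Of 30 FPKM levels, 29 moved by less than 1 SD with TMM-scaled CPM per kilobase. For DUSP5 in Huh-7 cells the level moved from 9.71 to 9.80. With 3 libraries of 1 clone a group, the values carry no spread between clones.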
